A study of Mus musculus with 8 samples.

Results

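The ABCD family of membrane transporters was followed in newborn mouse liver through 3 of its genes, Abcd2, Abcd3 and Abcd4. Every probe set that the array annotation pairs with exactly 1 of these symbols was taken, which gave 8 of the 45037 probe sets tested, 4 for Abcd2, 2 for Abcd3 and 2 for Abcd4. Livers of Mfp2 -/- mice, with both copies of the gene for peroxisomal multifunctional protein 2 lost, were compared with livers of wild type mice (WT). There were 4 livers per genotype, all from mice aged 2 days, with 1 Affymetrix array of biotin-labelled total RNA for each. The design text counts mice, so each array was taken as 1 animal. The labels name no strain, sex or feeding state, nor the way in which Mfp2 was deleted. The question was whether the transporters that load the peroxisome differ in transcript level when an enzyme further down the same pathway is missing.

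ABCD proteins work as dimers that use ATP to move their cargo across an organelle membrane. Those of the peroxisome bring in acyl-CoA esters of fatty acids that mitochondria handle poorly, and the enzymes inside, Mfp2 among them, then shorten the chains. Abcd2 carries very long chain and polyunsaturated acyl-CoAs. Abcd3, long known as the major 70 kDa peroxisomal membrane protein, carries branched and dicarboxylic acyl-CoAs and the CoA esters of bile acid precursors. Abcd4 belongs to the family by sequence, but it sits in the lysosome membrane, where it works with Lmbrd1 to release cobalamin (vitamin B12) into the cytosol.

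Values are RMA expression values on the log2 scale, where each unit is a doubling. Array medians ran from 3.68 to 3.73, and a probe set near or under them is not shown to be above background. Hsd17b4, the gene of Mfp2, lay between 3.25 and 4.29 in the livers labelled knockout and between 8.15 and 8.97 in the wild type livers, so each array matched its label. Between arrays, Pearson correlations across the probe sets were 0.983 to 0.993 within genotypes and 0.976 to 0.989 between them.

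Abcd2 rose in the knockout livers, by 1.74-fold. The brightest of its probe sets, 1419748_at, read 8.42, 8.79, 8.77 and 8.75 in knockout livers 1 to 4 and 7.89, 7.89, 7.64 and 8.09 in wild type livers 1 to 4. All 4 knockout values lay above all 4 wild type values, with knockout 1 the lowest of its group and wild type 4 the highest of its own. The means were 8.68 ± 0.18 (SD, n = 4) and 7.88 ± 0.18 (SD, n = 4). The difference of 0.80 ± 0.13 (SE) on the log2 scale had a 95% interval from 0.52 to 1.08 and a limma adjusted p of 0.0352. This was the single call among the 8 probe sets, where 0.762% of all probe sets passed in either direction and 0.198% passed as higher. Per gene, with the brightest probe set standing for the gene, 0.308% of 18193 genes were called higher. The Abcd2 difference lay at the 99.2 percentile of all gene differences, whose median was 0.01.

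**Figure D1:**
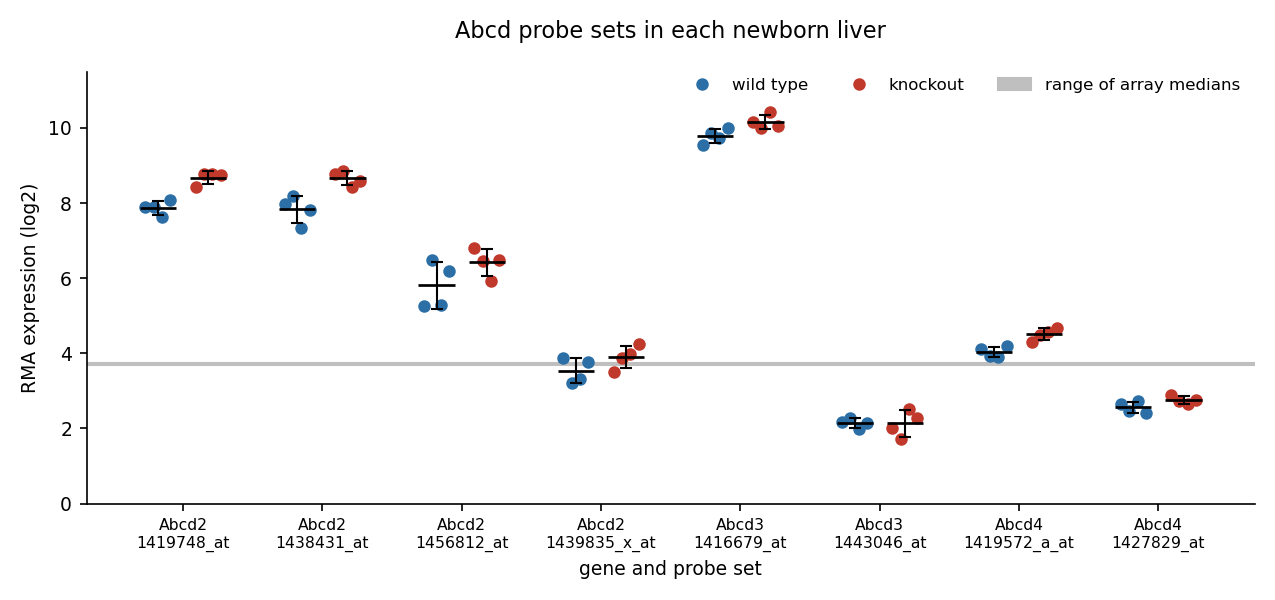
RMA expression on the log2 scale (vertical axis) of each of the 8 probe sets of Abcd2, Abcd3 and Abcd4 (horizontal axis) in 4 wild type (blue) and 4 knockout (red) livers, with group means and SD in black and the range of array medians in grey. The knockout livers lie above the wild type livers without overlap for 1419748_at and 1438431_at of Abcd2 and 1419572_a_at of Abcd4, while 1443046_at and 1427829_at lie below the grey band.

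A second probe set of Abcd2 moved by about the same amount. In 1438431_at the knockout livers 1 to 4 read 8.76, 8.87, 8.43 and 8.59, and the wild type livers read 7.96, 8.20, 7.35 and 7.82. The genotypes did not overlap here either, with wild type 3 the lowest of the 8 livers, as it was for 1419748_at. The difference was 0.83 ± 0.18 (SE), and with the wider spread of the wild type group its limma adjusted p was 0.0689. Within each array the first probe set minus the second differed between genotypes by -0.03, with an exact permutation p of 0.886 (two-sided). Liver by liver it ran from -0.35 to 0.34 in knockout and from -0.31 to 0.29 in wild type livers. The large p thus does not show that the probe sets agree in each liver.

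The other two Abcd2 probe sets were dimmer and the genotypes overlapped. In 1456812_at the knockout livers read 6.81, 6.45, 5.94 and 6.49 and the wild type livers 5.26, 6.48, 5.30 and 6.19. Wild type 1 and 3 were low there, while wild type 2 lay at the level of the knockout livers. The difference was 0.62 ± 0.29 (SE), with a limma adjusted p of 0.462 and a 95% interval from -0.03 to 1.27. The values of 1439835_x_at ran from 3.51 to 4.24 in knockout and from 3.21 to 3.87 in wild type livers, around the array medians. Its difference was 0.37 ± 0.19, with a limma adjusted p of 0.522, and the suffix of its name marks a probe set that may also bind other transcripts.

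Abcd3 had the brightest probe set of the 8 and did not pass the test. In 1416679_at the knockout livers 1 to 4 read 10.15, 9.99, 10.41 and 10.05, and the wild type livers read 9.55, 9.86, 9.73 and 10.00. The genotypes overlapped by a narrow margin, since knockout 2 lay just below wild type 4. The means were 10.15 ± 0.19 (SD, n = 4) and 9.79 ± 0.19 (SD, n = 4). The difference was 0.36 ± 0.13 (SE), or 1.29-fold, with a limma adjusted p of 0.284. Its unadjusted 95% interval, 0.08 to 0.65, runs from a 1.05-fold to a 1.57-fold higher level, which is an interval for this probe set alone. The second Abcd3 probe set, 1443046_at, ran from 1.71 to 2.53 in knockout and from 1.99 to 2.29 in wild type livers, below every array median. It gave a difference of -0.01 ± 0.16.

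Abcd4 was dim, and its genotypes did not overlap. In 1419572_a_at the knockout livers 1 to 4 read 4.29, 4.50, 4.57 and 4.66, and the wild type livers read 4.11, 3.93, 3.91 and 4.20. The gap between the lowest knockout and the highest wild type liver was narrow, between knockout 1 and wild type 4. The means were 4.51 ± 0.16 (SD, n = 4) and 4.04 ± 0.14 (SD, n = 4), above the array medians by less than 1 on the log2 scale. The difference was 0.47 ± 0.11 (SE), with a 95% interval from 0.22 to 0.72 and a limma adjusted p of 0.102, so it did not pass. Of all genes, 3.59% had 4 knockout values above 4 wild type values. The second probe set, 1427829_at, ran from 2.65 to 2.88 in knockout and from 2.42 to 2.74 in wild type livers, below the array medians, with a difference of 0.19 ± 0.10 and a limma adjusted p of 0.532.

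**Figure D2:**
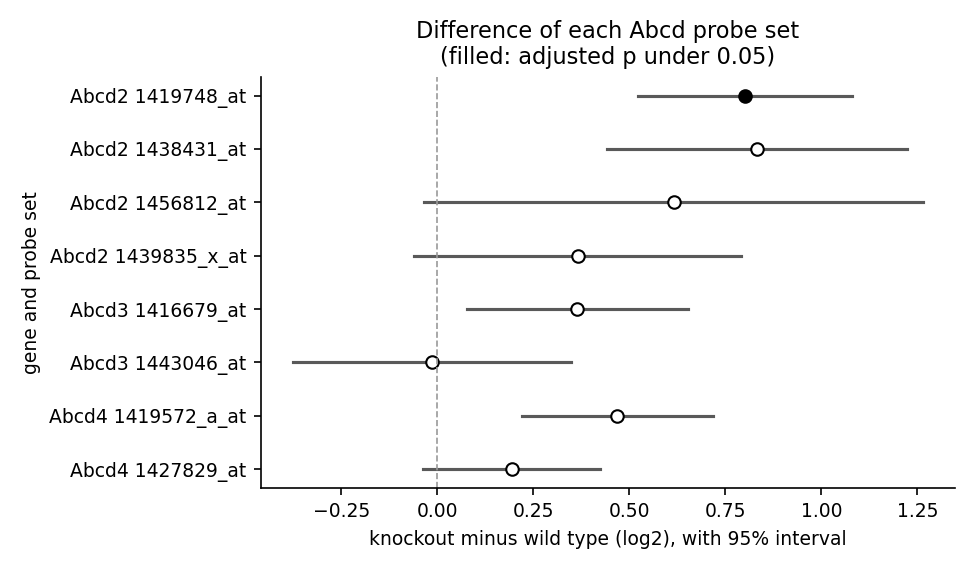
Knockout minus wild type difference on the log2 scale (horizontal axis) of each probe set (vertical axis) with its unadjusted 95% interval from limma. The filled point marks 1419748_at of Abcd2, the single probe set past the threshold, and 7 of the 8 points lie above 0. The median difference of all probe sets was 0.016, and the share of them above 0 was not counted. Probe sets of the same gene on the same arrays are not independent, so the count by sign is not a test.

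The levels of the 3 genes cannot be ranked as amounts of transcript. Mean signals over all 8 livers were 9.97 for Abcd3, 8.28 for Abcd2 and 4.27 for Abcd4, each for the gene's brightest probe set, at the 98.4, 94.6 and 58.1 percentiles of all probe sets. The 4 probe sets of Abcd2 alone ran from 3.72 to 8.28, although they are annotated to 1 gene. Probe sets of 1 gene thus differ by more than 4 on the log2 scale, and RMA values are not scaled per length of transcript. What can be compared is the change within each gene between the genotypes.

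The size of the Abcd2 difference changed little when single livers were left out, while its call was often lost. These fits share most of their livers, so they show only how much any 1 liver weighs. Left out in turn, the 8 livers gave differences from 0.72 to 0.89. The call held when knockout 1 or wild type 2 was removed, with a limma adjusted p of 0.0368 and 0.0456. It was lost when any 1 of the other 6 livers was removed. The limma adjusted p was then 0.0561 for knockout 2, 0.0877 for knockout 3 and 0.106 for knockout 4. It was 0.0575 for wild type 1, 0.117 for wild type 3 and 0.0820 for wild type 4. Abcd3 ran from 0.28 to 0.44 and Abcd4 from 0.42 to 0.54 in the same fits, with 0 calls in 8 fits for each.

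**Figure D3:**
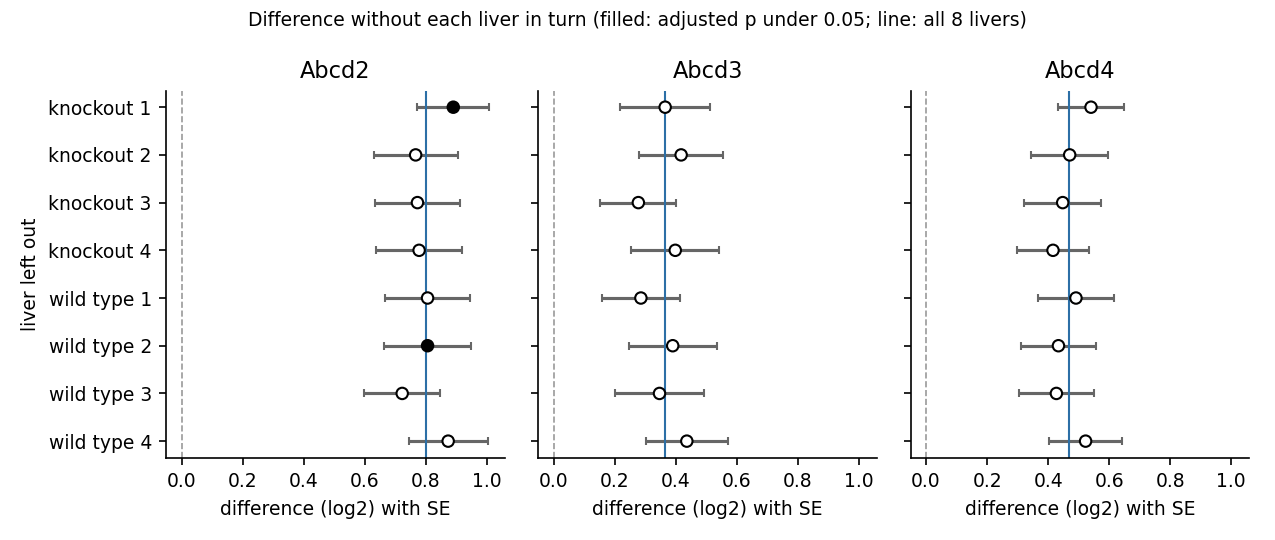
Knockout minus wild type difference on the log2 scale with its SE (horizontal axis) for each of the 3 genes after leaving out the liver named on the vertical axis. Abcd2 stays between 0.72 and 0.89 but is filled, for an adjusted p under 0.05, in 2 of 8 fits; the blue line is the value with all 8 livers.

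The labels do not give sex, but Xist, transcribed from the inactive X chromosome, was high in knockout 1, knockout 2 and wild type 3 and low in the other 5 livers. Among the 3 livers with high Xist the Abcd2 difference was 0.96, from 2 knockout livers and 1 wild type liver. Among the 5 others it was 0.80, from 2 and 3 livers. The matching differences were 0.34 and 0.43 for Abcd3 and 0.48 and 0.54 for Abcd4. For Abcd2 and Abcd4 the genotypes did not overlap, so any split of the livers gives a higher knockout mean in each set. The 1 wild type liver with high Xist, wild type 3, was also the lowest wild type liver for both of these genes. Between replicates 1 and 2 alone Abcd2 differed by 0.71 and between replicates 3 and 4 alone by 0.89. The labels do not call these sets batches. In them Abcd3 differed by 0.36 and 0.36, and Abcd4 by 0.38 and 0.56.

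Whether the genes changed by unequal amounts was tested on the difference of 2 genes within each array, which removes what an array has in common. Abcd2 minus Abcd4 was higher in every knockout liver, 4.09 to 4.28, than in every wild type liver, 3.73 to 3.96. The change of 0.33 (95% interval 0.17 to 0.50) had an exact permutation p of 0.0286, the smallest that 4 against 4 livers allow, and 0.0857 after Benjamini-Hochberg adjustment over the 3 pairs. Abcd2 minus Abcd3 changed by 0.44 (0.05 to 0.82), with overlapping groups, an exact permutation p of 0.0571 and an adjusted value of 0.0857. Abcd3 minus Abcd4 changed by -0.10 (-0.50 to 0.29), with an exact permutation p of 0.543. No pair passed after adjustment. The intervals are unadjusted, come from a normal model with pooled SD and give the size only. A single pair at the smallest p possible reaches 0.0857 over 3 pairs, so the adjusted values do not settle whether Abcd2 changed by more than Abcd3 or Abcd4. With the mean of all probe sets of each gene, Abcd2 minus Abcd3 changed by 0.48 and Abcd2 minus Abcd4 by 0.32. The adjusted exact permutation p was then 0.171 for each. Abcd4 lay less than 1 above the array medians, where RMA can shrink differences, so equal changes could also read as unequal for the pairs with Abcd4.

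**Figure D4:**
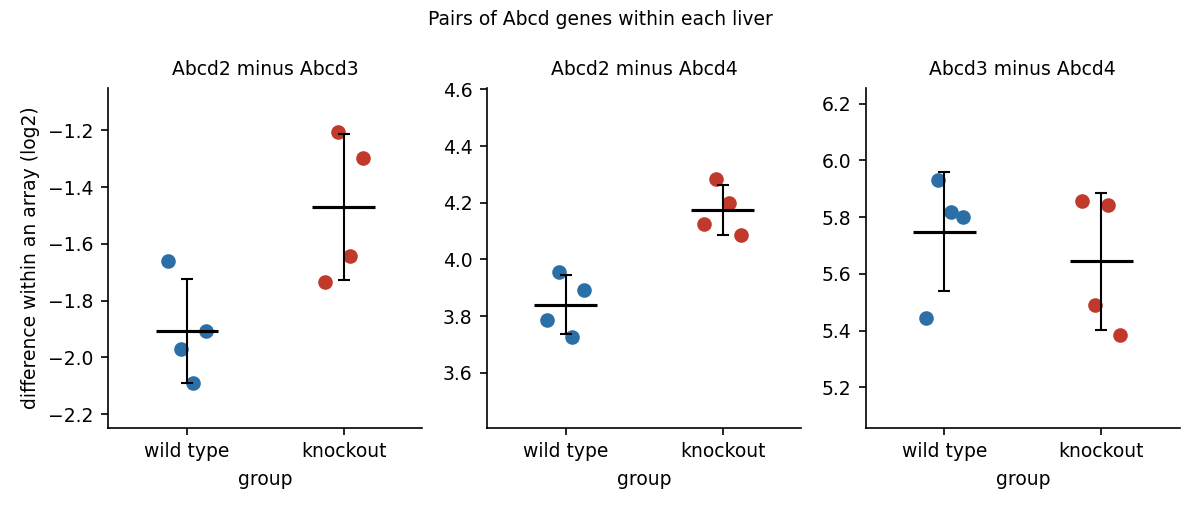
Difference of the RMA values of 2 genes within each array on the log2 scale (vertical axes, each spanning the same range) for 4 wild type (blue) and 4 knockout (red) livers, with mean and SD in black. Only the step between groups can be read, since the offset depends on the probes; the groups part for Abcd2 minus Abcd4 and overlap for the other pairs.

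Livers hold several cell types, and in these bulk samples fewer cells of a type and less RNA per cell cannot be told apart. All 10 measured erythroid markers had lower means in the knockout and 4 fell past the threshold (0.841% of all genes did). These were Ermap, Ank1, Hemgn and Rhag. The summed unlogged level of the 10 was 4633 to 7726 in knockout and 10117 to 11620 in wild type livers. Of 9 hepatocyte markers 0 passed in limma and 3 were higher at an unadjusted p under 0.05, as were 6.4% of all genes. The sum of the 9 was 61373 to 63181 in knockout and 59359 to 60741 in wild type livers. The mean of the 9 was 0.14 higher in the knockout on the log2 scale, but 6 markers had higher and 3 lower means. Alb differed by -0.05 and Ttr by -0.18, while Hnf4a differed by 0.42. The list was chosen with earlier results of these data known, so no p is given for this mean. Measured relative to that mean, in a fit chosen after the data were seen, Abcd2 differed by 0.67 ± 0.13 (SE) with a limma adjusted p of 0.0362, Abcd3 by 0.23 and Abcd4 by 0.33. The part of the erythroid fall in the differences of the 3 genes was not tested.

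Fat cells are known for high Abcd2. Of the 8 adipocyte markers measured 0 passed in limma, and 1, Fabp4, was lower at an unadjusted p under 0.05. Adipoq, a defining marker, had means of 1.85 in knockout and 1.69 in wild type livers, below every array median, and the summed level of the list was 236 to 420 and 303 to 362. Macrophage (10 measured), endothelial (8), stellate and fibroblast (9), neutrophil (9) and bile duct (5) lists had 0 members past the threshold in limma. At an unadjusted p under 0.05 they held 1 higher macrophage marker and 0 others. Over all genes 6.4% were higher and 8.18% lower at that level. Alb, which encodes the albumin of hepatocytes, read 13.5 in both genotypes, as the liver label implies.

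The enzymes that make acyl-CoAs included 2 that rose, and whether either supplies the transporters was not tested. Of 10 measured acyl-CoA synthetases 2 were higher and 0 lower, where 0.308% of all genes were called higher and 0.841% lower, and the median difference was 0.25 beside 0.01 over all genes. Slc27a5, which activates bile acids and very long chain fatty acids, rose by 0.78 ± 0.12 (SE; limma adjusted p 0.0340). Acsl3, a long-chain synthetase of the endoplasmic reticulum and lipid droplets, rose by 0.65 ± 0.12 (limma adjusted p 0.0499). It passed in 0 of the 8 fits that left out 1 liver (adjusted p 0.0765 to 0.152), and its difference was 0.92 in replicates 1 and 2 alone and 0.38 in replicates 3 and 4 alone. Slc27a2, a very long chain synthetase of the peroxisome, stood at 0.37 ± 0.14 with a limma adjusted p of 0.335, and was named after its value was seen.

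Inside the peroxisome, 2 of 22 measured genes of oxidation and export rose and 0 fell, leaving Hsd17b4 aside, beside 0.308% and 0.841% of all genes. The list's median difference was 0.36, and 7 members had knockout values above all wild type values, as had 3.59% of all genes. Phyh, the hydroxylase that opens the breakdown of phytanic acid, rose by 0.79 ± 0.14 (SE; limma adjusted p 0.0400). Acaa1a, the thiolase of the last step of chain-shortening, rose by 0.56 ± 0.11 (limma adjusted p 0.0499), in a probe set whose probes may also bind its near-identical copy Acaa1b. It passed in 1 of the 8 fits that left out 1 liver, and its difference was 0.38 in replicates 1 and 2 alone and 0.75 in replicates 3 and 4 alone. Ehhadh, the other multifunctional enzyme of the pathway, had the largest difference of the list, 1.43 ± 0.28, and did not pass (limma adjusted p 0.0569). It was named after its value was seen.

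Of the 89 genes on these and the next lists, each counted once, 4 passed with all livers. Without wild type 2 also 4 passed, of which 2, Slc27a5 and Phyh, were shared with the fit of all livers and 2, Ehhadh and Eci2, were not. Without knockout 2 Phyh and Acaa1a passed, without wild type 1 Slc27a5 alone, and 0 when knockout 1, knockout 3, knockout 4, wild type 3 or wild type 4 was removed.

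**Figure D5:**
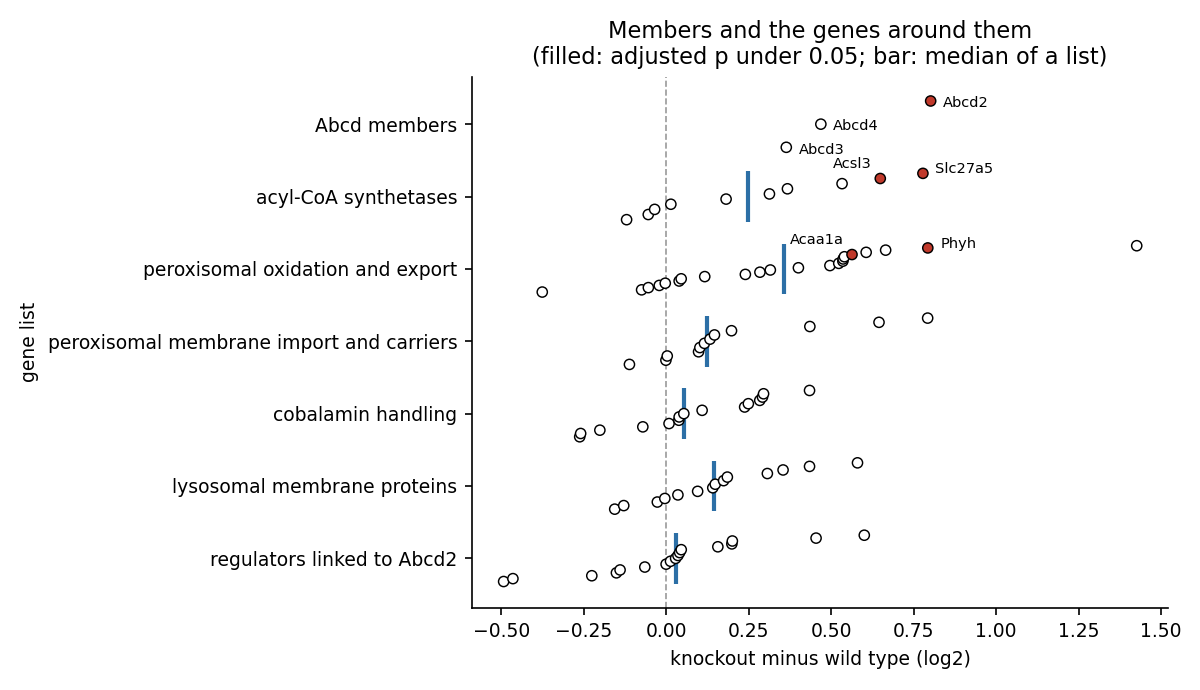
Knockout minus wild type difference on the log2 scale (horizontal axis) of Abcd2, Abcd3, Abcd4 and of each gene in 6 lists (vertical axis), with filled points for an adjusted p under 0.05 and a blue bar at the median of each list. Filled points are seen for Abcd2, Slc27a5, Acsl3, Phyh and Acaa1a, and list medians run from 0.03 to 0.36.

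Genes of the peroxisome membrane, of which only some place ABCD proteins there, did not pass. Among 12 measured genes of membrane import and other carriers 0 were called in limma, and the median difference was 0.12. At an unadjusted p under 0.05, 3 were higher and 0 lower, beside 6.4% and 8.18% of all genes. The lowest p belonged to Pxmp4, a peroxisomal membrane protein, at 0.44 ± 0.15 (SE; limma adjusted p 0.267). Pex19, the chaperone that delivers ABCD proteins to the membrane, differed by 0.10 ± 0.14, and Pex3, its docking site, by 0.20 ± 0.12. The largest differences of the list were those of Pex11a, 0.79 ± 0.30 (limma adjusted p 0.328), and Acbd5, 0.64 ± 0.24 (limma adjusted p 0.307). Of the 12 genes 10 had higher and 2 lower means in the knockout. All of these genes but Pxmp4 were named after their values were seen.

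Around Abcd4, 0 of 15 genes of cobalamin handling passed in limma, with 2 higher and 0 lower at an unadjusted p under 0.05 and a median difference of 0.05. Lmbrd1, the lysosomal partner of Abcd4, had the lowest p of the list, at 8.26 in knockout and 7.83 in wild type livers. Its difference was 0.43 ± 0.12 (SE), with no overlap between genotypes and a limma adjusted p of 0.146. Of 14 lysosomal membrane genes, Lmbrd1 included, 0 passed in limma and 4 were higher at an unadjusted p under 0.05, with a median of 0.14. Over all genes 6.4% were higher and 8.18% lower at that unadjusted level.

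Of 17 measured regulators that have been linked to Abcd2, 0 passed in limma. At an unadjusted p under 0.05 there were 1 higher and 3 lower, beside 6.4% and 8.18% of all genes, and the median difference was 0.03. Hdac1, a histone deacetylase, stood first by p, at -0.49 ± 0.11 (SE; limma adjusted p 0.0852). Ppara, the fatty acid sensing receptor, differed by 0.01 ± 0.17, Srebf2, the regulator of sterol synthesis, by 0.16 ± 0.13, and Srebf1, that of fatty acid synthesis, by -0.46 ± 0.15. These 3 were named after their values were seen, and a transcript level does not measure the activity of a regulator.

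The genes whose profile over the 8 livers was most like that of each transporter were found by Pearson's r among 11389 named genes with a mean above the median of all probe sets. For Abcd2 they were Atg7, an enzyme of autophagy, at r = 0.973, Acp6, a lysophosphatidic acid phosphatase, at r = 0.966, and Abcd4 at r = 0.965. For Abcd3 they were Fam72a at r = 0.977, Ctage5, a protein of cargo export from the endoplasmic reticulum, at r = 0.977 and Pcgf6, a Polycomb group protein, at r = 0.970. For Abcd4 they were Atg7 at r = 0.984, Phf23 at r = 0.977 and Dtx4 at r = 0.971. Of the 11389 genes searched, 73 had an r above 0.9 with Abcd2, 59 with Abcd3 and 46 with Abcd4. These r values describe 8 livers that share the genotype step and the array normalization, and no test was made of them. None of these genes passed the threshold between genotypes, and Atg7, the gene found for both Abcd2 and Abcd4, differed by 0.31 ± 0.09 (SE; limma adjusted p 0.194).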

How the data were processed

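Per the labels' protocols, Trizol was used to isolate total RNA and biotin to label it. The deposited table holds log2 values made by the authors with RMA, per the submitters' processing notes. That the scale is log2 follows from their range of 1.11 to 13.7. The sources used here name no software version, setting or genome build. RMA gives all arrays a shared probe distribution, which hides any change in total mRNA and can shrink differences of dim signals. The number of arrays, 4 against 4, limits the precision.

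Of 45101 probe sets, 64 array controls were left out. Of the rest, 34945 are annotated to 1 gene, 932 to several and 9160 to none listed. Symbols were updated by Entrez identifier against GRCm38.p6 (34741 found). Each gene was represented by its brightest probe set, by the mean of 8 arrays. Genotypes were compared with limma 3.58.1 in R 4.3.3 (lmFit, eBayes, two-sided, no covariate), with Benjamini-Hochberg adjustment over 45037 probe sets and a threshold of 0.05. The fit was tested on simulated data. Differences within arrays were tested by exact permutation, and their intervals came from a normal model with pooled SD.

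The members, the 6 gene lists and the 8 cell type lists were chosen with earlier results of these data known. Named genes are the members, up to 4 called genes per list or the one with the lowest p, and the 3 genes most like each member; others are said to be named after their values were seen. Alternatives were a filter on dim probe sets, quantile normalization again, median centring, trended and robust variance, array weights, the replicate number as a block, a sex score, the replicate sets and each array left out. Scaling to the hepatocyte markers was chosen after seeing the data.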

Additional observations from a re-analysis of the deposited data

Results flagged for a closer look

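Among 46 groups of 4 livers, over the members and the named genes, 1 held a liver far from the other 3. In the Abcd2 probe set 1419748_at, knockout 1 read 8.42 while the other knockout livers read 8.75 to 8.79, and its gap to them was 0.908 of the group's range, above Dixon's 95% limit for 4 values. Chance alone gives about 1 such group in 20. The other Abcd2 probe sets did not all place knockout 1 low. It read 8.76 in 1438431_at, where the other knockout livers ran from 8.43 to 8.87. In 1456812_at it was the highest knockout liver, at 6.81, and in the dim 1439835_x_at the lowest, at 3.51. Without knockout 1 the Abcd2 difference was 0.89 and its limma adjusted p 0.0368.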

How the results depend on the processing

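The Abcd2 difference kept its sign under each alternative and passed in limma under 9 of 12 that used no single-array removal, at 0.67 to 0.85 in those 9. It did not pass between replicates 1 and 2 alone (0.71, adjusted p 0.998) or replicates 3 and 4 alone (0.89, adjusted p 0.0796). With each array left out it ran from 0.72 to 0.89. The other Abcd2 probe sets gave 0.83, 0.62 and 0.37, and the second Abcd3 probe set gave -0.014; dim signal limits the probe sets near the array medians. Abcd3 and Abcd4 did not pass under any of these.

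Labels give both genotypes replicates 1 to 4, but same-numbered livers do not all deviate together (r from -0.0039 to 0.26, and 1 of 4 knockout livers correlates best with its own number). Deviations did follow the sets of replicates 1 and 2 and of replicates 3 and 4. Between genotypes, r was -0.0039 to 0.26 within these sets and -0.24 to -0.034 across them. With the sets as a term Abcd2 differed by 0.80 (limma adjusted p 0.0327), and 514 probe sets passed. The cause of this pattern was not tested. With the replicate number as a block Abcd2 kept 0.80 at a limma adjusted p of 0.0645, 15 probe sets passed in place of 343, and 0 genes passed in the lists together, among the synthetases and in peroxisomal oxidation.

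The count of 343 was 914 with array weights, 526 with the sex score, 4 in replicates 1 and 2 alone and 919 relative to the hepatocyte markers, a scaling that moves all differences by 0.14; leaving out single arrays gave 9 to 489. The 4 genes of the lists became 2 with median centring, 7 with array weights, 0 in replicates 1 and 2 and 1 in replicates 3 and 4, and 0 to 4 without single arrays. The 2 synthetases became 1 with median centring, trended variance, array weights, the replicate sets as a term or the hepatocyte scaling, 0 in either replicate set alone and 0 to 1 without single arrays. The 2 genes of peroxisomal oxidation became 1 with median centring, 5 with array weights, 4 with the replicate sets as a term, 0 in replicates 1 and 2, 1 in replicates 3 and 4 and 0 to 3 without single arrays. Among the regulators 1 passed with array weights and 1 with the hepatocyte scaling, Hdac1 in both, at -0.51 and -0.63. The cause was not tested.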

Other observations

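The other ABC transporters on the array give a frame for the 3 genes, in a list formed from gene symbols after values had been seen. Of 42 genes of the ABCA, ABCB, ABCC, ABCE, ABCF and ABCG families 2 rose and 0 fell in limma, beside 0.308% and 0.841% of all genes. The median difference of the list was 0.03. Those that rose were Abcb1a, a drug efflux pump, by 2.51 ± 0.20 (SE), and Abcb11, the bile salt export pump, by 0.97 ± 0.17 (limma adjusted p 0.00273 and 0.0441). At an unadjusted p under 0.05, 5 of the 42 were higher and 3 lower, beside 6.4% and 8.18% of all genes.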
